A study of Mus musculus with 6 samples.

Results

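The 10 genes described here are 4 fibroblast growth factor (FGF) ligands, Fgf2, Fgf3, Fgf7 and Fgf10, and 6 feedback targets of FGF signalling, Spry1, Spry2, Spry4, Dusp6, Etv4 and Etv5. They were taken by gene symbol, and all 10 were found among the 25899 rows of the deposited expression table. Expression was measured by poly(A) RNA sequencing in the apical mesenchyme of mouse lower first molars at postnatal day 7.5. The 3 mutant libraries came from Gli1-CreER;Bmpr1afl/fl mice, in which a tamoxifen-dependent recombinase made in Gli1-expressing cells can delete the floxed BMP receptor gene Bmpr1a. The 3 control libraries came from littermates with the Bmpr1afl/fl genotype and no driver in their label, so floxed alleles were common to both groups. All mice had a mixed C57Bl6/129S6/SvEvTac strain background. The littermate number in the labels is read here as the litter. Litter 2 consisted of control 3 and mutant 3, and the libraries numbered 1 and 2 of both genotypes belonged to litter 1. The tamoxifen schedule, and whether controls received it, are not given in the sources used here. Nothing in the labels says how many animals each library pooled, so p-values measure the spread between these libraries, which may in part be technical. The comparison asks whether loss of Bmpr1a from Gli1-expressing cells and their descendants changes FGF signalling genes at the stage when molar roots begin to form.

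FGF ligands are secreted proteins that bind receptor tyrosine kinases (FGFRs) together with heparan sulfate, and the receptors act largely through the RAS-ERK kinase cascade. ERK activity switches on genes that restrain the pathway, among them the sprouty proteins and the ERK phosphatase DUSP6, as well as the ETS-family transcription factors ETV4 and ETV5. In developing teeth Fgf3, Fgf7 and Fgf10 are known as ligands of the mesenchyme and surrounding tissue, and Fgf4, Fgf8, Fgf9 and Fgf20 as ligands of the epithelium. FGF10 from the mesenchyme maintains the epithelial progenitor region of the growing tooth, and sprouty genes limit how far FGF signals pass between the layers.

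Promoter sequences are shown for 3 feedback targets: those of Dusp6 and Spry2 because they hold a short motif tied to ERK signalling, and that of Etv5 because a relative of it, noticed on reading the window, is repeated there. RefSeq promoter windows (build GRCm38.p6, from 250 bases before to 50 bases after a gene start) were found for 8 of the 10 genes, Etv5 having a window at each of its annotated starts, which gave 9 windows. Capicua (Cic) is a repressor whose action is relieved by ERK. The octamers TGAATGAA, TGAATGGA, TCAATGAA and TCAATGGA, which it is known to bind, were searched on both strands. At least 1 of them was present in 3.84% of all 32851 windows and in 2 of these 9, those of Dusp6 and Spry2. An octamer bound by ETS factors, CCGGAAGT, was searched as well. It was present in 3.89% of all windows and in none of these 9. The Dusp6 stretch below is chr10:99263081-99263230 (plus strand, positions -150 to -1 from the start). The Spry2 stretch is chr14:105896840-105896919 (minus strand, positions -100 to -21). Neither touches a gene in the GENCODE M21 annotation. The Etv5 stretch, chr16:22438479-22438618 (minus strand, from position -250 on), lies before the inner RefSeq start and within an intron of the longer Etv5 transcripts. Capitals mark the octamers, read 5′ to 3′ on the gene's strand.
Dusp6: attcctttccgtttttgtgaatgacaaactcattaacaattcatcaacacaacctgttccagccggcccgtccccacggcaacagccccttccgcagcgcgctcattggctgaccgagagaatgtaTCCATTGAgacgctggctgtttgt
Spry2: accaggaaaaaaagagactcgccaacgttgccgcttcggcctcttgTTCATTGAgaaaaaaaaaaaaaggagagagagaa
Etv5: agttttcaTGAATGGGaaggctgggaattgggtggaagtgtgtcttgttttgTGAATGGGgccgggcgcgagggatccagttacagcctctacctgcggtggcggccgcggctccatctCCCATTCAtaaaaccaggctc
Dusp6 carried TCAATGGA on the opposite strand at -24 to -17 and again at 2 to 9, just past the start and outside the stretch shown, and Spry2 carried TCAATGAA on the opposite strand at -54 to -47. The inner Etv5 window held none of the 4 octamers but 3 copies of the relative TGAATGGG, at -242 to -235, -198 to -191 and, on the opposite strand, -131 to -124. That octamer was added to the search after the window had been read. It occurred in 1.08% of all windows and 3 or more times in only 1 of them, the Etv5 window. A match describes letters and is not evidence of binding. Cic itself was measured at 105 to 154 RPM (read counts scaled to a common library total) across the 6 libraries.

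Libraries held 15916045 to 20609420 reads on genes, and 1 read was worth 0.0329 to 0.0419 RPM. Bmpr1a was between 121 and 149.5 RPM in controls and between 108 and 120.2 RPM in mutants, without overlap (log2 change -0.27, limma p 0.091 before and 1.00 after Benjamini-Hochberg adjustment). All 8 listed markers of dental mesenchyme were at or above 1 RPM in every library, with a summed level of 891 to 1205 RPM in controls and 779.9 to 1176 RPM in mutants. Epithelium was present too. The 5 dental epithelium markers Krt14, Krt5, Epcam, Cdh1 and Shh summed to 206 RPM in control 2 and to between 977 and 3592 RPM in the other libraries. The 6 enamel markers summed to 36570 RPM in control 3, 46905 RPM in mutant 1 and 17027 RPM in mutant 3, against 2128 to 4451 RPM in the other libraries. Most of that sum was Amelx and Ambn, and Klk4 (4.02 RPM) and Mmp20 (37.0 RPM) were lowest in mutant 3. None of these markers was at 0 in any library. Their part in the results below was not tested. In such bulk samples, fewer cells of a type and less RNA per cell cannot be told apart.

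Scaled to exon length (GENCODE M21, all exons of a gene merged), the mean of each target was above that of each ligand. Dusp6 had the highest mean at 12.9 ± 2.38 RPM per kb (SD, n = 6 libraries), followed by Spry1 at 7.76 ± 2.32, Spry2 at 7.23 ± 1.56 and Etv5 at 5.87 ± 0.852 RPM per kb. Their ranges overlapped from each neighbour to the next. Etv4 followed at 2.63 ± 1.10 RPM per kb, and its highest library, 3.66, was below the lowest Etv5 library, 4.93. Spry4 at 1.82 ± 0.565 and the ligands Fgf10 at 1.48 ± 0.774 and Fgf3 at 0.743 ± 0.365 RPM per kb each overlapped the gene before them. Fgf2 at 0.393 ± 0.0823 RPM per kb overlapped Fgf3, and Fgf7 at 0.0880 ± 0.0485 RPM per kb stood clear of Fgf2. The authors' annotation is not given in the sources used here, so these lengths may differ from those behind the reads.

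**Figure D1:**
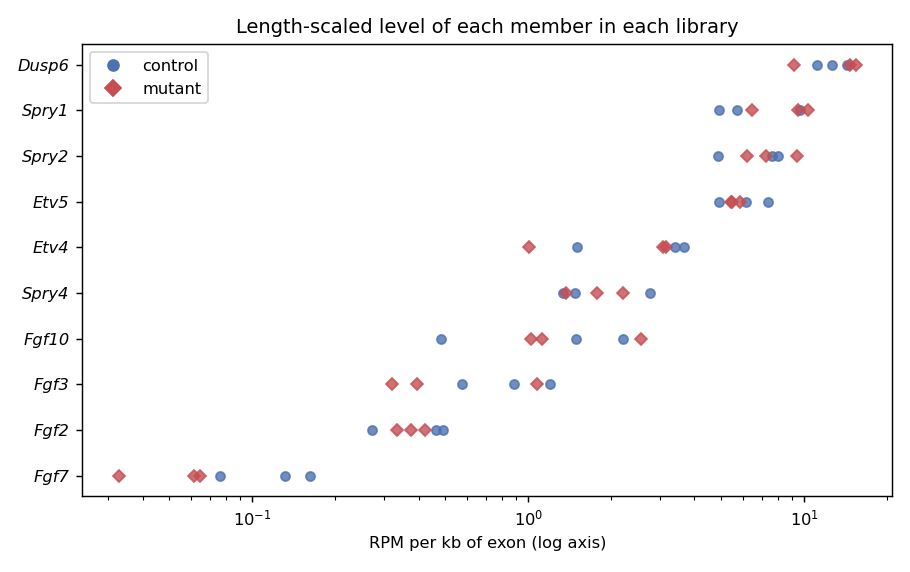
Length-scaled level of each gene in each library (RPM per kb of merged exon, log axis); circles are control and diamonds mutant libraries. Dusp6 is highest at a mean of 12.9 and Fgf7 lowest at a mean of 0.0880 RPM per kb, and the control and mutant points mix in every row but that of Fgf7.

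Between genotypes, none of the 9 tested ligands and targets differed beyond the spread between libraries, and Fgf7 was too low to test. Of the 9 genes that reached a mean of 1 RPM and were tested, 0 passed an adjusted p of 0.05 (limma with Benjamini-Hochberg over 14444 genes), where the background was 0% of all tested genes. At an unadjusted p under 0.05 there were also 0 of 9, against 1.05% of all tested genes, and the smallest unadjusted p was 0.219, for Spry1. The groups overlapped for all 9. Over all tested genes 1.67% were lower and 0.976% higher in mutants without overlap. The log2 changes of the 10 genes, from control to mutant and in units of log2(RPM + 1), ran from -0.41 to 0.38. Their median was -0.04, beside -0.01 for all tested genes. Changes in 6 of the 10 were below 0, as were 54.4% of those of all tested genes.

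Fgf10, which signals from mesenchyme to epithelium through the epithelial form of FGFR2, was at 10.1, 6.85 and 2.22 RPM in controls 1 to 3 and at 5.15, 11.7 and 4.69 RPM in mutants 1 to 3. The highest library was mutant 2 and the lowest control 3, a 5.28-fold range. Its log2 change was 0.22 (SE 0.51, 95% interval -0.97 to 1.42, limma p 0.675 before and 1.00 after Benjamini-Hochberg adjustment). Within litter 1 the change was -0.08 and within litter 2 it was 0.82. A noncoding gene on the opposite strand, Gm16263, shares exon sequence with Fgf10 but was at 0.395 RPM or below in every library.

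Fgf3, a mesenchymal ligand of the same subfamily, was at 2.80, 2.06 and 1.34 RPM in controls 1 to 3. In mutants 1 to 3 it was at 0.746, 2.50 and 0.922 RPM. Mutants 1 and 3 were below all controls, while mutant 2 lay among them. These values rest on 21 to 85 reads, and counting error alone gave an exact 95% Poisson interval of 0.462 to 1.14 RPM for mutant 1 and 0.950 to 1.84 RPM for control 3. The log2 change was -0.41 (SE 0.33, 95% interval -1.18 to 0.37, limma p 0.255 before and 1.00 after Benjamini-Hochberg adjustment). In log2(RPM + 1) it was the most negative of the 10, but in that unit changes of low genes come out too small. Mean levels in controls and mutants were 2.07 and 1.39 RPM for Fgf3, beside 0.400 and 0.172 RPM for Fgf7, whose change was -0.25. The Fgf3 change was -0.47 within litter 1 and -0.29 within litter 2.

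Fgf7, a ligand that acts on epithelium through the same FGFR2 form, was at 0.428, 0.525 and 0.247 RPM in controls 1 to 3 and at 0.107, 0.200 and 0.210 RPM in mutants 1 to 3. It was the only one of the 10 whose groups did not overlap, with mutants below controls. The shares without overlap given above are of tested genes and do not cover a gene this low. It did not reach the mean of 1 RPM needed for the test, and the values stand for 13, 15 and 7 reads in controls and 3, 6 and 5 reads in mutants. The 95% Poisson interval of control 3, 0.0994 to 0.509 RPM, covered all 3 mutant values. Those of control 1 (0.228 to 0.732 RPM) and control 2 (0.294 to 0.865 RPM) lay above these values. The mutant values have counting error too. Their intervals reached up to 0.312, 0.434 and 0.489 RPM in mutants 1 to 3, and each overlapped the intervals of all 3 controls.

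Fgf2, a ligand stored in the extracellular matrix, was at 3.32, 3.15 and 1.84 RPM in controls 1 to 3 and at 2.27, 2.86 and 2.56 RPM in mutants 1 to 3. All 3 mutants lay between the lowest control, control 3, and the other controls. The log2 change was -0.06 (SE 0.23, 95% interval -0.60 to 0.48, limma p 0.802 before and 1.00 after Benjamini-Hochberg adjustment). Exons of Nudt6, on the opposite strand, and of the noncoding gene Gm43439, on the same strand, overlap those of Fgf2. Nudt6 was at 3.23 to 4.76 RPM, and Gm43439 was not analysed here. Without knowledge of how overlaps and strand were counted, reads of the shared parts cannot be told apart.

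**Figure D2:**
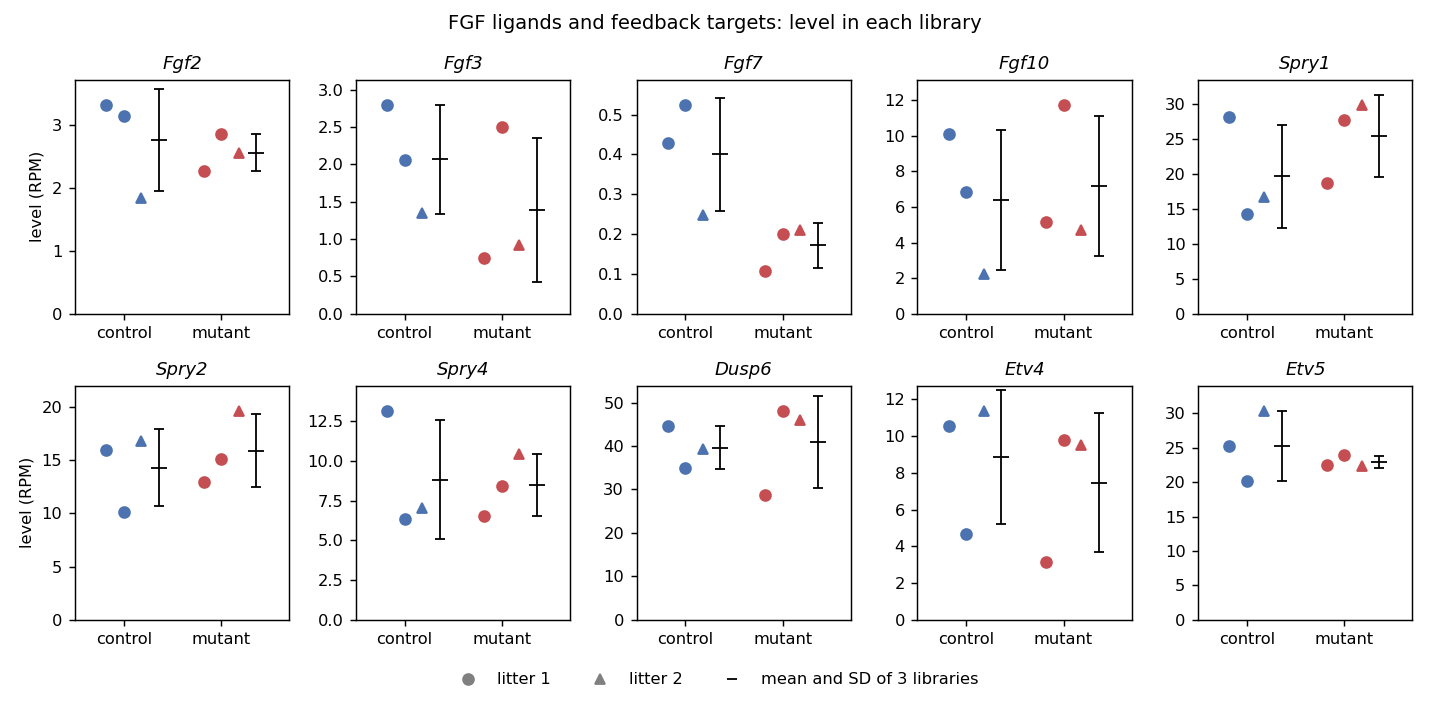
Level of each of the 10 genes in each library (RPM, linear axes from 0), controls in blue and mutants in red, circles for litter 1 and triangles for litter 2, with the mean and SD of the 3 libraries of a genotype. Groups overlap for every gene except Fgf7, whose mutant libraries reach at most 0.210 RPM against at least 0.247 RPM in controls.

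The sprouty genes encode intracellular inhibitors of receptor tyrosine kinase signalling. Spry1 was at 28.1, 14.3 and 16.6 RPM in controls 1 to 3 and at 18.7, 27.6 and 29.9 RPM in mutants 1 to 3. Control 1 stood with mutants 2 and 3, and the other libraries were lower. The Spry1 log2 change of 0.38 (SE 0.29, 95% interval -0.29 to 1.06, limma p 0.219 before and 1.00 after Benjamini-Hochberg adjustment) was the most positive of the 10, at 0.17 within litter 1 and 0.81 within litter 2. An uncharacterised gene model, Gm42922, which shares exon sequence with Spry1, was not analysed here. Spry2 was at 16.0, 10.1 and 16.8 RPM in controls and at 12.9, 15.1 and 19.6 RPM in mutants, with control 2 lowest and mutant 3 highest. The Spry2 change was 0.15 (SE 0.24, 95% interval -0.41 to 0.72, unadjusted p 0.542 by limma). Spry4 was at 13.2, 6.33 and 7.03 RPM in controls and at 6.54, 8.45 and 10.4 RPM in mutants. Control 1 was the highest library, and the mean change was near 0 at -0.01 (SE 0.30, 95% interval -0.71 to 0.69, unadjusted p 0.971 by limma).

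Dusp6, the cytoplasmic phosphatase that removes the activating phosphates from ERK, was at 44.7, 34.8 and 39.3 RPM in controls 1 to 3 and at 28.7, 48.1 and 46.1 RPM in mutants 1 to 3. Mutants held both the lowest and the highest library. The log2 change was 0.02 (SE 0.22, 95% interval -0.50 to 0.53, limma p 0.933 before and 1.00 after Benjamini-Hochberg adjustment). At its depth of 809 to 1445 reads per library, counting error was small beside the spread between libraries. Dusp6 is one of the genes whose promoter stretch is printed above.

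Etv4, an ETS transcription factor induced by FGF signalling, was at 10.6, 4.65 and 11.4 RPM in controls 1 to 3. In mutants 1 to 3 it was at 3.13, 9.78 and 9.51 RPM, so control 2 and mutant 1 stood well below the other 4 libraries, which lay close together. The log2 change was -0.26 (SE 0.46, 95% interval -1.34 to 0.82, unadjusted p 0.585 by limma). Etv5, its close relative, varied least of the 10, with a 1.5-fold range. It was at 25.3, 20.2 and 30.3 RPM in controls and at 22.5, 24.0 and 22.3 RPM in mutants. All 3 mutants lay inside the control range, and the change was -0.12 (SE 0.17, 95% interval -0.52 to 0.29, unadjusted p 0.520 by limma).

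**Figure D3:**
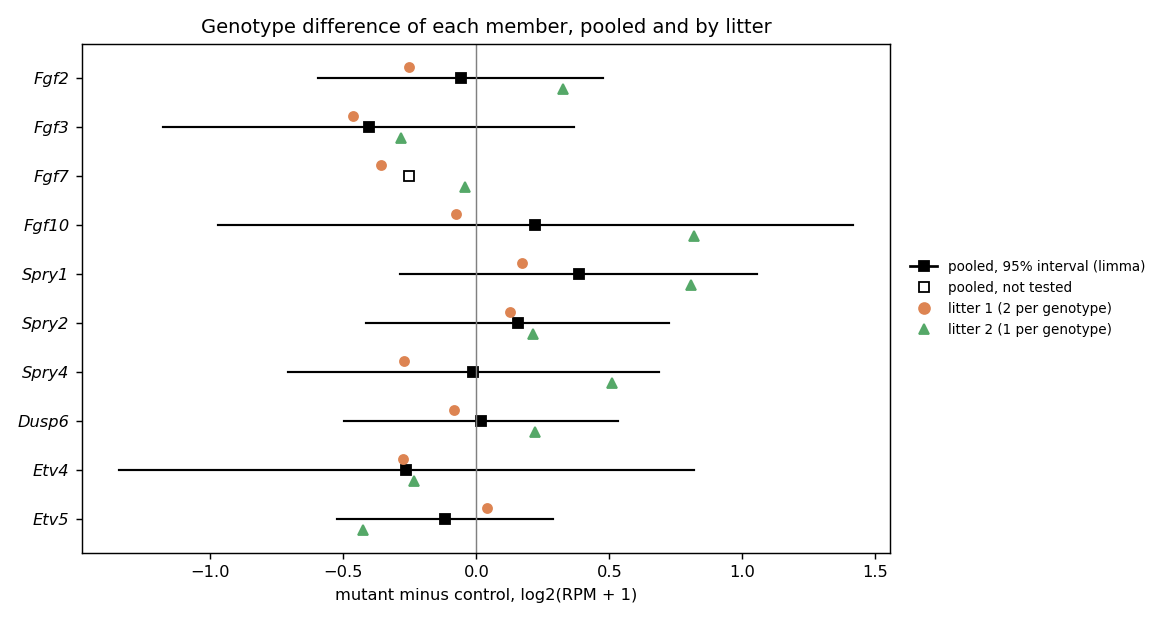
Difference between genotypes for each gene (mutant minus control, log2(RPM + 1)): squares with bars are the pooled change with its 95% limma interval, the open square is the untested Fgf7, circles are litter 1 and triangles litter 2. Every interval crosses 0, with that of Etv5 narrowest (-0.52 to 0.29) and that of Fgf10 (-0.97 to 1.42) widest in this fit without litter, and the litters fall on opposite sides of 0 for Fgf2, Fgf10, Spry4, Dusp6 and Etv5.

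These 95% intervals come from the fit without litter. For Etv5 the interval reached from -0.52 to 0.29 on the log2 scale, the narrowest of the 9. For Fgf10 the interval reached from -0.97 to 1.42, and with litter as a block in the fit from -0.60 to 1.05, so both include changes of either sign. With that block the widest interval was that of Etv4, from -1.26 to 0.74, and again 0 of the 9 genes had an unadjusted p under 0.05 by limma. Only Fgf3 and Spry1 kept their sign under all alternative settings run, while 7 of the 9 tested genes changed sign under at least 1 setting, and 0 of the 9 passed adjustment under any. With 1 library left out the change of Fgf3 still ran from -0.72 (without mutant 2) to -0.22 (without mutant 1), and that of Spry1 from 0.20 (without control 2) to 0.66 (without control 1).

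Libraries of 1 genotype differed from each other in the feedback targets, and control 2 and mutant 1 were low for most of them. Control 2 was the lowest library for 4 of the 6 targets and mutant 1 for the other 2, Dusp6 and Etv4. Control 2 was among the lowest 2 libraries for 6 of 6 targets and mutant 1 for 4 of 6. With each target standardised over the 6 libraries, the mean level was -1.11 SD in control 2 and -0.93 SD in mutant 1. It was 0.74, 0.27, 0.40 and 0.63 SD in control 1, control 3, mutant 2 and mutant 3. Beside this, control 2 had the lowest sum of dental epithelium markers (206 RPM), but mutant 1 had 2337 RPM. Mutant 1 had the highest enamel sum (46905 RPM) and the lowest dental mesenchyme sum (779.9 RPM), but control 2 had the lowest enamel sum (2128 RPM) and the highest dental mesenchyme sum (1205 RPM). The odontoblast sum was highest in mutant 1 (8149 RPM) and next highest in control 2 (5905 RPM). Mutant 2, with targets at 0.40 SD, was close to control 2 at 5614 RPM, and the lowest was 311 RPM in mutant 3. The muscle sum was lowest in mutant 1 and control 2, at 0.249 and 0.315 RPM. It reached at most 1.0 RPM, in mutant 3, with Acta1, Ckm and Myh3 each at 0 in at least 1 library. The part of tissue makeup in the target levels was not tested.

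**Figure D4:**
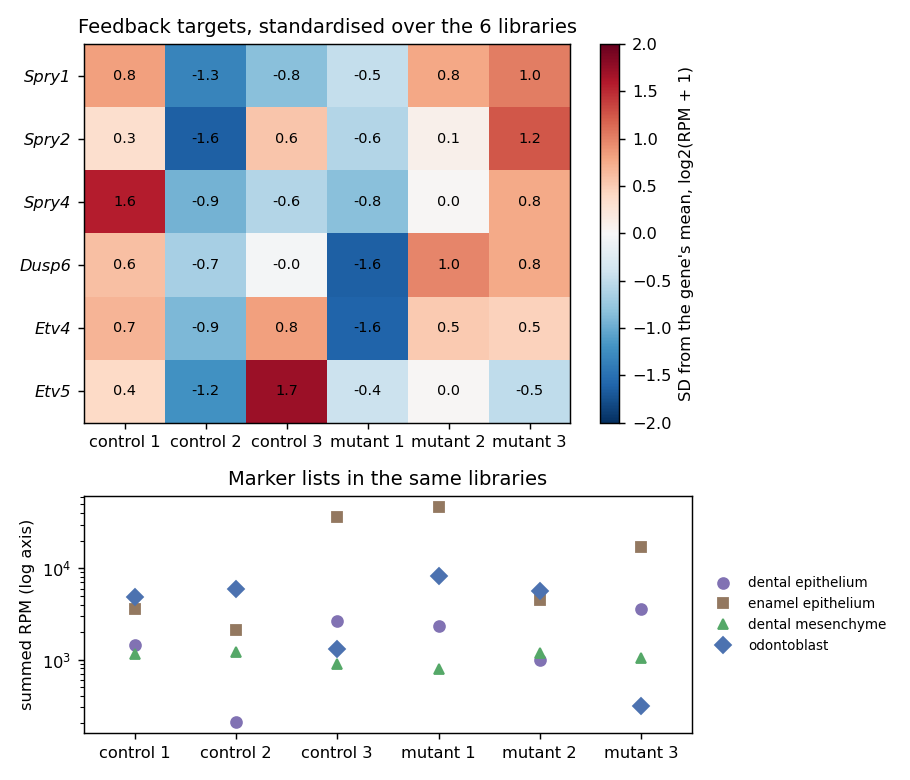
Upper panel: the 6 feedback targets in each library as SD from the gene's own mean of log2(RPM + 1), red above and blue below the mean. Lower panel: summed RPM (log axis) of 4 marker lists in the same libraries. Control 2 and mutant 1 average -1.11 and -0.93 SD over the targets, with dental epithelium sums of 206 and 2337 RPM. Their odontoblast sums, 5905 and 8149 RPM, are the highest, but mutant 2, at 0.40 SD, is close to control 2 at 5614 RPM.

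The genes whose profile over the 6 libraries was most like the mean standardised profile of the 6 targets were 1810029B16Rik (Pearson's r 0.99), Nptx1 (0.98), Ddx31 (0.98), Chchd5 (0.98) and Pecr (0.98). They were picked as the 5 highest of 11809 genes averaging 5 RPM or more. With only 6 points from shared libraries, r reached 0.9 or more for 217 of those genes, 1.84%. Nptx1, which encodes a secreted pentraxin, ranged from 3.74 RPM in control 2 to 14.0 RPM in control 1, and the other 4 varied less.

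Other genes of the FGF pathway were taken from a list of 84 genes by role, of which 74 were not among the 10. Of these, 72 were in the table and 60 were tested. Between genotypes 0 of 60 passed an adjusted p of 0.05 (limma with Benjamini-Hochberg), 1 had an unadjusted p under 0.05, and the groups did not overlap for 2, 1 in each direction. Over all tested genes these shares were 1.05% for the unadjusted p and 1.67% (lower) and 0.976% (higher) without overlap, so such counts among 60 genes are near the background. The median log2 change of the 60 was 0.03. The gene with an unadjusted p under 0.05 was Fgf4, an epithelial ligand of tooth signalling centres. It was at 2.96, 0 and 0 RPM in controls 1 to 3 and at 2.10, 4.03 and 3.23 RPM in mutants 1 to 3. Control 1 lay among the mutants, while controls 2 and 3 held no read, which allows up to 0.105 and 0.106 RPM. The Fgf4 change was 1.35 (SE 0.55, limma p 0.0416 before and 1.00 after Benjamini-Hochberg adjustment), and its size rests on the pseudocount because of the zeros, at 3.31 with a pseudocount of 0.1. The non-overlapping pair were Gpc4, a heparan sulfate proteoglycan of the cell surface (53.0 to 55.9 RPM in controls, 44.5 to 49.4 RPM in mutants), and Flrt2, a membrane protein of the FLRT family (40.3 to 81.7 RPM in controls, 86.2 to 95.9 RPM in mutants). Both had an unadjusted p above 0.05 by limma, 0.102 for Gpc4 and 0.0757 for Flrt2, and both were singled out after their values were seen.

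Among the receptors, Fgfr1, the main mesenchymal FGF receptor, was at 557 to 1646 RPM in controls and 498 to 1283 RPM in mutants, a log2 change of -0.17 (unadjusted p 0.749 by limma). Fgfr2 changed by -0.18, Fgfr3 by 0.11 and Fgfr4 by -0.08, with unadjusted p between 0.590 and 0.841 by limma. The further feedback genes named next behaved likewise. Spred1 (0.15), Spred2 (0.13) and Il17rd (0.15), which act as inhibitors of the RAS-ERK cascade or of FGF receptors, had overlapping groups, as did the phosphatase genes Dusp4 (0.05) and Dusp5 (-0.38) and the Etv4 relative Etv1 (-0.06). All of these had unadjusted p above 0.2 by limma, the smallest being 0.211 for Dusp5. Over all 13 tested feedback genes outside the 10, changes ran from -0.42 to 0.54. The lowest was Dusp9 (unadjusted p 0.144 by limma) and the highest Flrt2, whose groups did not overlap, as described above.

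Litters were compared next. In a limma fit with genotype and litter as terms, 126 of 14444 genes, 0.872%, had an adjusted p under 0.05 for litter, and 20.9% had an unadjusted p under 0.05. The adjusted count was 0 under median-of-ratios scaling and without mutant 2 or mutant 3, 22 without control 3, 51 without control 2, 82 without control 1 and 371 without mutant 1. Of the 9 tested ligands and targets, 0 passed adjustment and 1 had an unadjusted p under 0.05, a share no higher than the background. This was Fgf10, at 5.15 to 11.7 RPM in the 4 libraries of litter 1 and at 2.22 and 4.69 RPM in the 2 of litter 2, without overlap. Its litter 2 minus litter 1 difference was -1.09 (SE 0.36, 95% interval -1.96 to -0.21, limma p 0.0225 before and 0.175 after Benjamini-Hochberg adjustment). With 1 library left out it ran from -1.53 (without mutant 3) to -0.64 (without control 3), with limma adjusted p from 0.0546 to 0.646. Over all tested genes, litter 2 lay below litter 1 without overlap for 20.5% and above it for 15%, so that 1 of the 10 in each direction is no more than the background. The one above was Spry2, at 10.1 to 16.0 RPM in litter 1 and at 16.8 and 19.6 RPM in litter 2 (difference 0.41, SE 0.20, limma p 0.0838 before and 0.299 after Benjamini-Hochberg adjustment).

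Of the 5 tested receptor genes, 0 passed adjustment between litters and 3 had an unadjusted p under 0.05 by limma, where 20.9% of all tested genes did. Fgfr1 was at 1035 to 1646 RPM in litter 1 and at 557 and 498 RPM in litter 2 (difference -1.22, limma p 0.00326 before and 0.0930 after Benjamini-Hochberg adjustment). Fgfr3 was lower in litter 2 by the same measure (-0.98, unadjusted p 0.0233), while Fgfr2, at 108 to 163 RPM in litter 1, was at 239 and 210 RPM in litter 2 (0.73, unadjusted p 0.00643). The litters overlapped for Fgfr4 (-0.49, limma p 0.261 before adjustment) and for Fgfrl1, a receptor without a kinase domain (-0.11, limma p 0.485 before adjustment). Of the 60 other tested pathway genes, 16 had an unadjusted p under 0.05 for litter by limma and 1 passed adjustment, near the shares of 20.9% and 0.872% over all tested genes. The one that passed was Sdc3, a heparan sulfate carrier. Sdc3 was at 643 to 690 RPM in litter 1 and at 249 and 304 RPM in litter 2, a litter difference of -1.28 (limma with Benjamini-Hochberg, adjusted p 0.0438). That call was lost under another library scaling (adjusted p 0.0537) and without any 1 library other than mutant 1, with adjusted p up to 0.288 without control 3, while the difference stayed at -1.23 under that scaling and between -1.42 and -1.13 with 1 library left out. Beside these differences, the 4 odontoblast markers, Dspp, Dmp1, Phex and Nes, summed to 4879 to 8149 RPM in litter 1 and to 1307 and 311 RPM in litter 2. Dspp made up most of that sum in all 4 litter 1 libraries, and Dmp1 was instead highest in control 3 of litter 2, at 88.7 RPM. The dental epithelium sum, at 206 to 2337 RPM in litter 1, was at 2654 and 3592 RPM in litter 2. The macrophage sum (3 of 4 markers in the table) was at 110 to 219 RPM against 63.9 and 102 RPM, and the erythroid sum (4 markers) at 130 to 341 RPM against 1419 and 430 RPM. None of the markers of these 4 lists was at 0 in any library, and their part was not tested. Litter 2 holds 1 library per genotype, so differences between litters and between single dissections cannot be told apart.

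**Figure D5:**
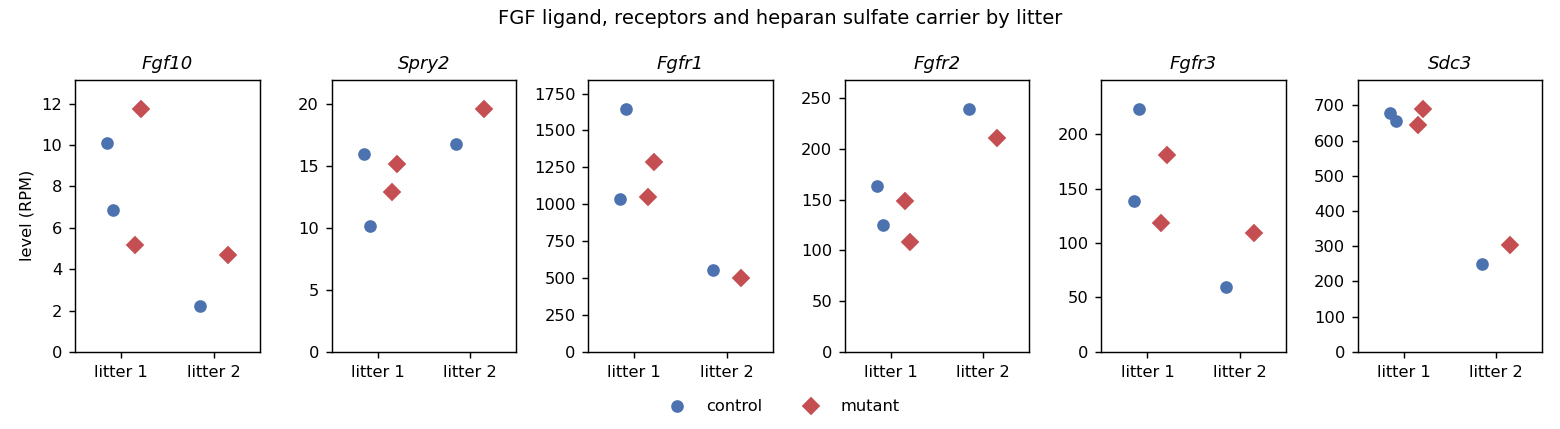
Level (RPM, linear axes from 0) of Fgf10, Spry2, 3 receptors and Sdc3 by litter, circles for control and diamonds for mutant libraries. In litter 2 both genotypes lie below litter 1 for Fgf10 (2.22 and 4.69 RPM), Fgfr1, Fgfr3 and Sdc3 and above it for Spry2 and Fgfr2.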

How the data were processed

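RNA from the apical molar mesenchyme of 3 mutant and 3 control mouse samples was measured by poly(A) sequencing. Reads were aligned with TopHat2 to mm10, per the submitters' processing notes; the counting tool, annotation and strand setting are not given in the sources used here. The authors deposited 1 table of log2 values for 25899 genes. Its title names RPKM, but raised as powers of 2 the values of each column were whole multiples of 1 step (100% within 0.02 reads), the same for all genes. They were therefore treated as log2 RPM (reads scaled to a common total per library) with length not divided out, the total being inferred from the step; reads on genes made up 66.7 to 68.6% of it. Genes without reads, deposited at the value of 0.9 reads, were set to 0. Column names matched the sample titles.

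Libraries held 15916045 to 20609420 reads on genes. On the inferred totals, which are larger, 3 reads, the limit that a count of 0 allows, were worth 0.0987 to 0.126 RPM. Poisson intervals (exact, 95%) and these floors cover counting error only, since the labels name no molecular identifiers. The 14444 genes averaging 1 RPM or more were tested as log2(RPM + 1), on which changes of low genes come out too small, with limma 3.58.1 in R 4.3.3 (moderated test with a mean-variance trend, two-sided, Benjamini-Hochberg adjustment over all tested genes). Litter was tested in a fit with genotype and litter as terms, and its interaction with genotype in a further fit with 2 residual degrees of freedom. Only the genotype fit was tested on simulated data with known changes, set in well-expressed genes and without litter differences. Changes in low genes were not part of that test. Alternatives were no filter on low genes, a filter at 5 RPM, a pseudocount of 0.1, median-of-ratios scaling, limma-voom on the recovered reads, litter or replicate number as a block, litter 1 alone, and leaving out each library.

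All 10 ligands and targets are described. The other pathway genes named are those with an unadjusted p under 0.05 between genotypes or an adjusted p under 0.05 between litters, the 4 receptors, Etv1, Spred1, Spred2, Il17rd, Dusp4 and Dusp5. Outside this rule, Gpc4, Flrt2, Dusp9, Cic, Fgfrl1 and the genes under other observations were picked after their values were seen. Genes of similar profile were the 5 with the highest Pearson's r to the mean standardised target profile. For dental epithelium, 1 listed marker is not reported here and was left out of its list's sum. The genes, lists and tests were chosen with earlier results of these data known. Exon lengths came from GENCODE M21 (GRCm38), and promoter windows, 250 bases before to 50 after a start, from RefSeq (GRCm38.p6). Tables and figures were made with Python 3.11.15, pandas 2.3.3 and matplotlib 3.10.9.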

Additional observations from a re-analysis of the deposited data

Results flagged for a closer look

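For 4 of the 22 genes named by rule (the 10 ligands and targets and 12 other pathway genes), both mutants of litter 1 lay on one side of their litter's controls and the mutant of litter 2 on the opposite side of its control. The same held for 2622 genes, 18.2% of all tested. For Fgf2 the log2 change was -0.25 in litter 1 and 0.33 in litter 2, a difference of 0.58 (limma genotype by litter interaction, unadjusted p 0.209; Benjamini-Hochberg adjusted p 0.910). For the receptor gene Fgfr4 the changes were -0.62 and 0.98, a difference of 1.6 (limma, unadjusted p 0.0246, adjusted p 0.876). Fgfr4 was at 0.671 to 3.57 RPM in the 6 libraries. For the phosphatase gene Dusp5 they were -0.61 and 0.08, a difference of 0.69 (limma, unadjusted p 0.262, adjusted p 0.910). For the transcription factor gene Etv1 they were 0.22 and -0.62, a difference of -0.84 (limma, unadjusted p 0.0766, adjusted p 0.910). Litter 2 holds 1 library per genotype, the interaction fit has 2 residual degrees of freedom, and 0 of the 14444 tested genes passed adjustment for the interaction.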

How the results depend on the processing

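The count of genes at an unadjusted p under 0.05 between genotypes was 152. It was 344 with no filter on low genes, 316 in litter 1 alone, 292 with litter as a block, 524 with the replicate number as a block and 68 to 319 when 1 library was left out. The count at an adjusted p under 0.05 was 0 throughout, except for 1 gene, Spp1, without control 1. For litter, the unadjusted count of 3026 was 4010 under median-of-ratios scaling and 1396 to 4245 with 1 library left out, and the adjusted count of 126 was 0 under that scaling and 0 to 371. The numbers were not treated as pairs, since the deviations of same-numbered libraries correlated at -0.03, 0.75 and 0.50 for numbers 1 to 3, and libraries numbered 1 did not correlate best with each other.

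Genotype changes turned sign in litter 1 alone for Fgf10 (-0.077), Dusp6 (-0.082) and Etv5 (0.038), and for Spry4 under median-of-ratios scaling (0.0028). With 1 library left out they ran from -0.25 to 0.052 for Fgf2 (turned without control 1, control 2 or mutant 1), -0.29 to 0.60 for Fgf10 (control 3 or mutant 2), -0.059 to 0.28 for Spry2 (control 2), -0.19 to 0.28 for Spry4 (control 1 or mutant 1), -0.11 to 0.25 for Dusp6 (control 2, mutant 2 or mutant 3), -0.62 to 0.19 for Etv4 (mutant 1) and -0.26 to 0.019 for Etv5 (control 3). Litter differences likewise ran from -0.58 to 0.00031 for Fgf2, -0.26 to 0.38 for Spry1, -0.34 to 0.44 for Spry4, -0.028 to 0.30 for Dusp6 and -0.058 to 0.41 for Etv5. The cause was not tested. Fgf7 entered the test only with no filter (-0.25, limma adjusted p 1.00), and depth limits it and Fgf3 most.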

Other observations

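Several epithelial or low ligands of the family, picked after their values were seen, differed between the control libraries. Fgf20 was at 4.77, 0.665 and 0.671 RPM in controls 1 to 3 and at 2.52, 4.19 and 3.39 RPM in mutants 1 to 3, so that control 1 alone reached the mutant levels. The FGF-binding protein gene Fgfbp1 was at 1.42 RPM in control 1, 0 in controls 2 and 3, and 0.391, 1.10 and 2.39 RPM in mutants 1 to 3. Fgf15 was at 0.527, 0.0350 and 0 RPM in controls and at 0.746, 1.23 and 0.629 RPM in mutants. Its groups did not overlap, with mutants above controls, but it was too low to test. The shares without overlap of tested genes do not cover it. Controls 2 and 3 were lowest for these 3 genes, as they were for Fgf4. Fgf9, another epithelial ligand, was highest in control 3 at 11.3 RPM and ranged from 0.853 to 3.08 RPM elsewhere. Fgf16 was likewise highest in control 3 at 4.24 RPM and lay between 0.200 and 0.769 RPM elsewhere. Fgf8 was at 5.92, 2.38 and 3.74 RPM in controls and at 1.85, 3.69 and 8.72 RPM in mutants, with no separation of the groups. Shh, an epithelial signal and one of the dental epithelium markers, was at 10.4 RPM in control 2 and at 56.2 to 86.8 RPM in the other libraries.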
